A study of Mus musculus with 12 samples.

Results

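The step from the LSK fraction to common myeloid progenitors (CMP) was described in the wild-type mice of the series, as CMP minus LSK. It covered 6 of the 12 libraries, chosen by their labels alone: 3 from wild-type LSK cells and 3 from wild-type CMP. All came from bone marrow of C57BL/6 mice, for which the labels name no treatment and whose genotype is given as wild type for the +42 kb enhancer of Cebpa, the gene of C/EBPα, which directs progenitors towards granulocytes and monocytes. The other 6 libraries are LSK and CMP of mice that lack both copies of that enhancer, and they enter only where the step is compared between genotypes. Libraries are named by cell type and by the number in their title, so that LSK 1, 6 and 8 stand against CMP 1, 6 and 8. The labels do not say how many mice a library holds, nor that the LSK and CMP libraries of a number share a mouse. The labels give no ages.

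LSK names the bone marrow cells that carry no lineage markers and are positive for the surface proteins Sca-1 and Kit. This fraction holds the stem cells, most of them quiescent, and the multipotent progenitors that divide more often. CMP are sorted from the Kit-positive cells without Sca-1, by intermediate levels of CD34 and Fc gamma receptors, and are a mixture of cells primed for granulocytes and monocytes and cells primed for erythrocytes and megakaryocytes. A level below is therefore a mean over a mixture, and in such bulk samples fewer cells of a type and less RNA per cell cannot be told apart.

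The labels were checked against 4 markers. Hlf, a transcription factor of stem cells (chromosome 11, 90336536 to 90390895, minus strand, build mm10), stood at 438, 388 and 488 CPM (gene counts relative to TMM-scaled library size) in LSK 1, 6 and 8 and at 11.9, 12.9 and 12.8 CPM in CMP 1, 6 and 8. Ly6a, which encodes Sca-1 (chromosome 15, 74994877 to 74998031, minus strand), stood at 148, 134 and 176 CPM in LSK and 5.52, 5.68 and 3.23 in CMP. Since Sca-1 defines the gate, that difference checks the sort and is no finding. Mpo, the myeloperoxidase of primary granules (chromosome 11, 87793581 to 87804413, plus strand), went the other way, from 449, 306 and 340 CPM to 4898, 4447 and 4052. Klf1, the erythroid Krüppel-like factor (chromosome 8, 84901928 to 84905291, plus strand), was at 6.66, 0.14 and 8.64 CPM in LSK and 200, 219 and 178 in CMP. For each of these 4 genes the LSK and CMP libraries lay far apart and did not overlap, in the direction of the labels. Libraries also did not overlap, in either direction, for 33.3% of all tested genes. The fall of Ly6a passed in all 6 fits, described below, that left out 1 library. Of the other gate genes, Kit was lower in CMP (792 ± 86.8 to 343 ± 82.8 CPM, mean ± SD, n = 3 here and below; adjusted p = 0.0263 by edgeR, over all genes), and Cd34 was at 1150 ± 108 and 804 ± 86.3 CPM (adjusted p = 0.097, edgeR).

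Counts assigned to genes ranged from 14753266 to 34080293 per LSK library and from 15470260 to 32770938 per CMP library, so that 3 counts, the floor used here, correspond to 0.088 to 0.203 CPM. 2 libraries stood apart by missing transcripts: of 9230 genes whose mean reached 10 CPM, LSK 6 had no count for 149 (1.61%) and CMP 8 for 88 (0.953%), against 1 to 18 in the other libraries. Late neutrophil transcripts were highest in the libraries of number 1 in both cell types. The 29 genes of that list summed to 1881, 698 and 516 CPM in LSK 1, 6 and 8 and to 2615, 439 and 137 CPM in CMP 1, 6 and 8. B cell transcripts were also highest in CMP 1, where Cd79a reached 21.2 CPM (17 genes, 181 CPM in sum, against 29.8 to 113 CPM in the other 5 libraries). So was the basophil protease Prss34, at 113 CPM in CMP 1 and at most 2.39 CPM elsewhere. The T cell receptor chains Cd3d and Cd3e and the eosinophil peroxidase Epx stayed at or below 1.49 CPM in all 6. By Xist and the Y-linked genes number 1 was male and numbers 6 and 8 female in both cell types, so that each cell type held the same mix of sexes.

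The promoters of Klf1 and Mpo, the markers of the main branches beyond LSK, and of 2 erythroid genes that were among the largest rises, Ermap and Pklr, are shown here because these genes rose together in CMP. They are the 250 bases before the transcription start in RefSeq (build GRCm38.p6), 5′ to 3′ on the gene's strand. Capitals mark matches to the GATA motif (AGATAA or TGATAA), the CEBP motif (TTGCNNAA) or the ETS motif (GAGGAAG), each searched on both strands; no match overlaps another. The same window of the second Pklr start and those of Cx3cr1, another of the largest rises, and of Hlf and Nkx2-3, which fell, held no match to any of the 3 motifs and are not printed.
Klf1, chr8:84901732-84901981, plus strand: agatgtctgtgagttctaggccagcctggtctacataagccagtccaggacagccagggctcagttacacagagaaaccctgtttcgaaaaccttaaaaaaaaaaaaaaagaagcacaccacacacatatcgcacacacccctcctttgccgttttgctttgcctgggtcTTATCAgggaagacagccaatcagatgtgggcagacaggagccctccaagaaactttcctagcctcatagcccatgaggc
Ermap, chr4:119189996-119190245, minus strand: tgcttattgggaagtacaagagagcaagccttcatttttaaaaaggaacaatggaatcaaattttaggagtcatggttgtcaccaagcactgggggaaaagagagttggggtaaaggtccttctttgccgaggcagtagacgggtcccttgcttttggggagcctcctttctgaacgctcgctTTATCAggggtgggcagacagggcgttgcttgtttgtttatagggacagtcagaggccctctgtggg
Pklr, chr3:89135892-89136141, plus strand, the first of 2 starts: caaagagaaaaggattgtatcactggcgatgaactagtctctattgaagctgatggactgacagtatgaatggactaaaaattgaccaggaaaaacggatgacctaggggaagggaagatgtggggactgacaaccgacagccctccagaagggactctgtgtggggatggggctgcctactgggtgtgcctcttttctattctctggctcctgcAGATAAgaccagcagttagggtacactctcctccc
Mpo, chr11:87793534-87793783, plus strand: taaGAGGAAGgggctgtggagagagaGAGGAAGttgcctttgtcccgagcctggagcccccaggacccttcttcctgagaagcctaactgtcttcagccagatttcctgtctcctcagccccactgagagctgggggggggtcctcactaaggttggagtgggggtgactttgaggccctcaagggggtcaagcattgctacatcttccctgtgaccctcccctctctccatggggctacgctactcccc
A GATA match begins 80 bases upstream of the start in Klf1 and 67 in Ermap, in each as TTATCA, the other strand of TGATAA. In Pklr it begins 35 bases upstream, as AGATAA. The Mpo window holds 2 ETS matches, 247 and 224 bases upstream, and no GATA or CEBP match. Gene positions from GENCODE begin inside the windows of Mpo (87793581), Klf1 (84901928) and Ermap (119190011), so these distances hold for the RefSeq starts only. Counted over 250 bases before and 50 after the start, 34.9% of 43 promoters of erythroid and heme genes held the GATA motif, against 18.6% of all 32851 promoters. Of 24 promoters of the primary granule list, which also holds genes of other proteins, 45.8% held the ETS motif (13.6% of all promoters). The CEBP motif was in 25% (10.8% of all) and the GATA motif in 4.17%. Among all genes that rose, 15.5% of 252 promoters held the GATA motif, 7.14% the CEBP motif and 16.3% the ETS motif, and among those that fell 12.9%, 10.2% and 18.4% of 256 did. These shares describe letters in a window and were not tested.

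Of 12030 genes tested, 507 (4.21%) passed edgeR's quasi-likelihood test at an adjusted p of 0.05 (Benjamini-Hochberg): 259 (2.15%) were higher and 248 (2.06%) lower in CMP. All adjusted p-values below are from this test unless another is named, and log2 fold changes are CMP minus LSK with their standard errors (SE). The median over all tested genes was −0.01 and 49.7% were positive, so the 2 directions were balanced. Changes past the test were large, with a median size of 1.61 on the log2 scale, and 426 of the 507 were of at least 1. The LSK and CMP libraries did not overlap for any of the 507, and they did not overlap for 33.3% of all tested genes. The count of calls depended on single libraries. It was 101, 67 and 56 without CMP 1, 6 and 8, and 166, 882 and 176 without LSK 1, 6 and 8. In all 6 of those fits 44 genes passed, 15 higher and 29 lower. Where a gene below is not said to have passed in all 6, its call was lost without at least 1 library.

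**Figure D1:**
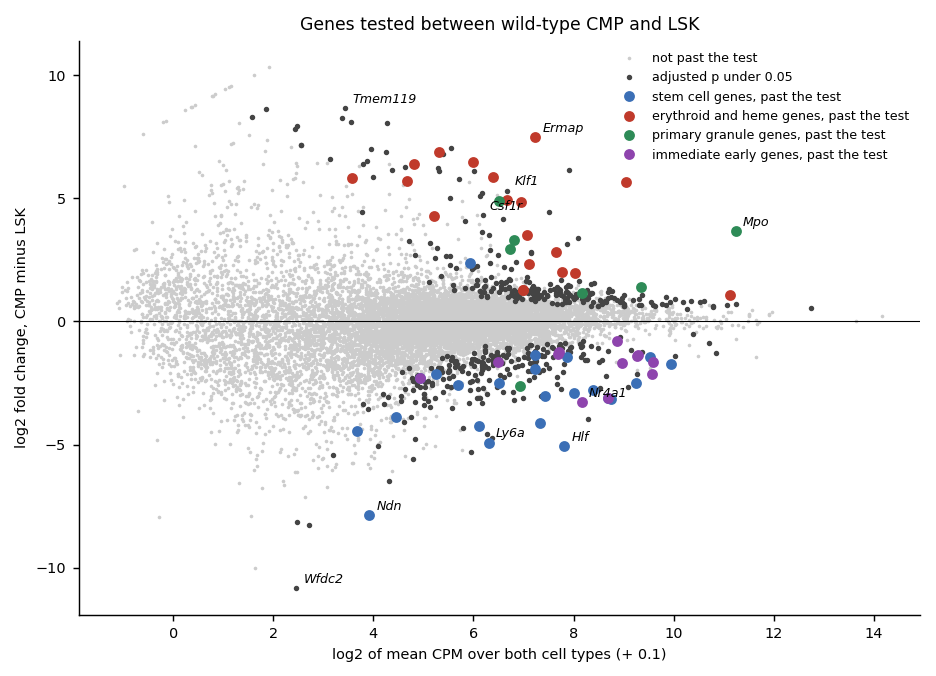
Each point is 1 of the 12030 tested genes, by the log2 of its mean CPM over both cell types (horizontal axis) and its log2 fold change, CMP minus LSK (vertical axis); dark points passed the test and colours mark members of 4 lists that passed. The erythroid genes lie among the largest rises, Hlf and Ly6a among the larger falls, and Mpo, at a log2 fold change of 3.67, at the right with the highest mean level of the genes labelled.

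The 12 largest rises past the test, among genes of at least 5 CPM in CMP, had log2 fold changes from 7.05 to 8.67. Ermap, a membrane protein of erythroid cells, was at 3.34, 0.21 and 1.26 CPM in LSK and at 232, 299 and 365 in CMP (log2 fold change 7.49, SE 0.80, adjusted p = 0.00654), and it alone of the 12 passed in all 6 fits. Pklr, the pyruvate kinase of liver and red cells, was at 0.259, 0.14 and 0 CPM in LSK and 31, 33.5 and 49.9 in CMP. Tmem56 was at 0.671 ± 0.817 and 92.9 ± 16 CPM. Cx3cr1, the fractalkine receptor of monocytes and macrophages, was at 0.202, 0 and 0 CPM in LSK and 16.5, 27.7 and 25.7 in CMP, and Tmem119, known from microglia, at 0.0384 ± 0.0666 and 21.4 ± 4.99. Spon2, an extracellular matrix protein, stood at 0.0658 ± 0.0702 and 20.5 ± 1.29 CPM. For Plxdc1, Dapk2 and Sowaha the LSK libraries held 1, 2 and 3 counts in all. The ratios to CMP were 443 (95% counting interval 79 to 1.75e+04), 352 (97.1 to 2.91e+03) and 252 (85.8 to 1.22e+03). Plxdc1, Dapk2 and Sowaha were thus close to undetected in LSK. So were Tmem119, Spon2, Cx3cr1 and Pklr, with 4, 4, 7 and 11 counts in all over the LSK libraries. A choice by the largest fold changes favours such genes.

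Among the 12 largest falls, Hlf (log2 fold change −5.07, SE 0.19, adjusted p = 8.37e-05) had the smallest p of all genes tested and passed in all 6 fits. Nkx2-3, a homeobox factor, went from 100, 128 and 132 CPM to 1.4, 4.4 and 3.1 (log2 fold change −5.30, SE 0.49, adjusted p = 0.00401) and passed in all 6 as well. Ndn, the growth suppressor necdin, went from 23.5, 35.7 and 30.8 CPM to 0.0317, 0.334 and 0. Wfdc2, a secreted protease inhibitor, had 592 counts over the LSK libraries and 0 in CMP, at least 197-fold lower with the floor of 3 counts over the group. Upp1, uridine phosphorylase, kept 2 counts in CMP, a ratio of 363 (95% counting interval 100 to 3e+03). Also among these falls were Col16a1, a collagen, from 38.9 ± 12.3 to 0.411 ± 0.471 CPM, Mmp2, a matrix metalloprotease, from 54 ± 18.3 to 1.07 ± 0.87, and F11r, a junction protein, from 33.2 ± 15.2 to 0.936 ± 0.799. Of 33 tested adhesion and integrin genes 1 rose and 1 fell (2.15% and 2.06% of all tested genes), with 17 positive and a median of 0.05.

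Of 68 listed stem cell genes 60 could be tested: 22 were lower and 1 higher in CMP, 37 did not pass, and 55 of 60 log2 fold changes were negative (median −2.16, against −0.01 for all genes). Beside Hlf and Ly6a, Ifitm1, a membrane protein of the interferon-induced family, went from 269, 317 and 337 CPM to 34.6, 35.8 and 39.1 (log2 fold change −3.02, SE 0.19, adjusted p = 0.00116). Lmo2, an adaptor of stem cell transcription complexes, was at 1083, 1063 and 1101 CPM in LSK and 419, 347 and 397 in CMP (log2 fold change −1.43, SE 0.12, adjusted p = 0.00268). Both were nearly level within a cell type and passed in all 6 fits, as did 9 of the 23 list members past the test.

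Other stem cell regulators fell with wider spread. Mecom, the factor EVI1, was at 40.8 ± 15.9 CPM in LSK and 2.66 ± 0.527 in CMP (adjusted p = 0.0164). Fgd5, a guanine exchange factor that marks stem cells, was at 24.4 ± 8.08 and 1.06 ± 0.198 (adjusted p = 0.0222). Mycn went from 155 ± 12.1 to 26.4 ± 13.4 CPM, Txnip, an inhibitor of thioredoxin that is high in resting cells, from 1032 ± 461 to 178 ± 7.6, and Angpt1, the ligand of the receptor Tek, from 588 ± 193 to 82.1 ± 27.4. Procr, a surface marker of stem cells, was at 43.8, 8.53 and 18.4 CPM in LSK and 1.24, 0.78 and 0 in CMP without passing (adjusted p = 0.107), and so was Cdkn1c, the inhibitor p57, at 16.1, 15.6 and 18.6 against 1.14, 1.34 and 0 (adjusted p = 0.15). The single rise was that of Gfi1b, a repressor also needed for erythroid and megakaryocyte cells, from 20.4 ± 5.3 to 101 ± 19.4 CPM (adjusted p = 0.0129). The list's count past the test was 16, 13 and 10 without CMP 1, 6 and 8, and 16, 28 and 17 without LSK 1, 6 and 8.

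Hox genes and their Meis and Pbx cofactors, which hold progenitors in an immature state, were lower by a median of −2.36 over 17 tested genes, 14 of them negative and 4 past the test. Meis1 went from 332, 548 and 492 CPM to 42.8, 59 and 76.5 (log2 fold change −2.89, SE 0.30, adjusted p = 0.00649) and passed in all 6 fits. Hoxa9, its partner, went from 247, 275 and 248 CPM to 46.6, 46.6 and 84.3 (log2 fold change −2.06, SE 0.28, adjusted p = 0.0135). Hoxa5 went from 51.5 ± 38.3 to 5.12 ± 0.873 CPM. The group's count of 4 was 1, 1 and 2 without CMP 1, 6 and 8 and 2 without LSK 1.

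**Figure D2:**
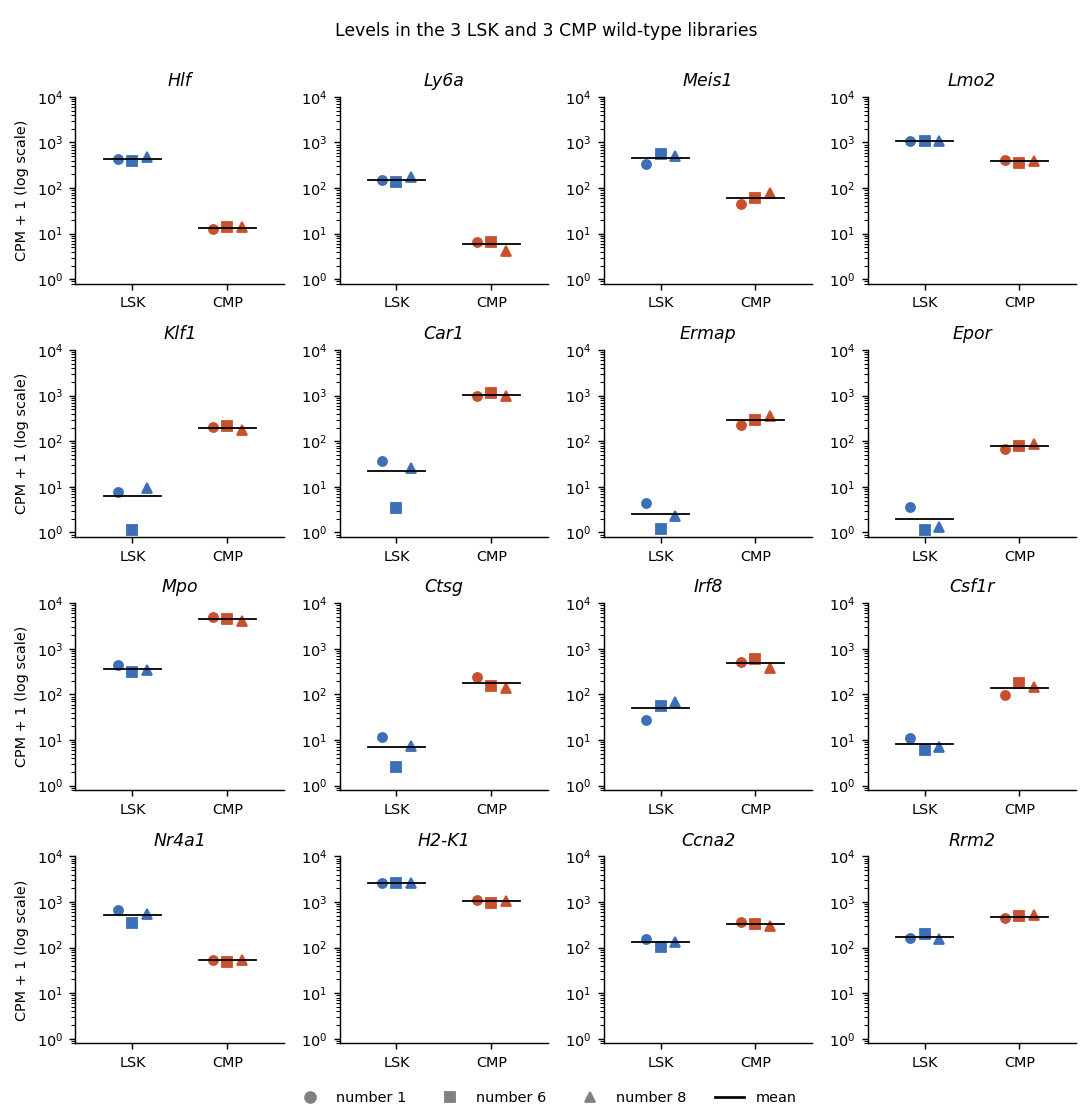
Each panel gives 1 gene's level, as CPM + 1 on a log axis, in the 3 LSK libraries (blue) and the 3 CMP libraries (orange); symbols mark the library number and bars the mean. Stem cell genes are in the top row, erythroid genes in the second, granulocyte and monocyte genes in the third, and early response, presentation, cycle and replication genes in the fourth. LSK 6 lies far below LSK 1 and 8 for Klf1 (0.14 CPM) and Car1 (2.45 CPM).

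Of 47 listed erythroid and heme genes 43 could be tested: 19 were higher and 0 lower (1 lower by DESeq2 and 1 at an unadjusted p under 0.05), and 41 of 43 were positive (median log2 fold change 2.65). In heme synthesis Alad, an early enzyme of the pathway, went from 75.6 ± 20.6 to 177 ± 34.4 CPM, Cpox, coproporphyrinogen oxidase, from 47.1 ± 30.6 to 230 ± 41.4, and Fech, which inserts the iron, from 76.3 ± 14.2 to 179 ± 8.72. Alas2, the erythroid enzyme of the first step, did not pass (15.5 ± 14.2 and 17.1 ± 10.5 CPM, adjusted p = 0.943). Tfrc, the transferrin receptor that brings in iron, went from 109 ± 34.1 to 416 ± 44.6 CPM.

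Genes of the red cell surface and of its enzymes were also among the rises. Car1, carbonic anhydrase 1, went from 36.4, 2.45 and 25.2 CPM to 981, 1121 and 995 (log2 fold change 5.65, SE 0.85, adjusted p = 0.018), with LSK 6 lowest. The blood group carriers Kel (0.648 ± 0.618 to 55.3 ± 16.4 CPM), Rhag (2.8 ± 4.07 to 165 ± 16.8) and Rhd (6.52 ± 7.45 to 196 ± 24), the water channel Aqp1 (8.49 ± 6.37 to 240 ± 26.8) and the spectrin Sptb (0.952 ± 1.3 to 50 ± 20.9) rose likewise. Blvrb, biliverdin reductase B, went from 30.2, 11.3 and 25.3 CPM to 205, 276 and 256 (adjusted p = 0.00654). Mt1, a metallothionein, went from 2.88, 5.52 and 2.9 CPM to 72.6, 69.6 and 69.6 (adjusted p = 0.00607), although reads may be shared with its close paralog Mt2. Globin counts were low. Hba-a1, whose reads are shared with its twin copy, had no count in any of the 6 libraries. Hbb-bs was at most 1.75 CPM except in CMP 6, where it was at 41.2 CPM and was counted with another set of gene symbols. As the counting mode is not given, globin transcript levels cannot be read from these counts. Within the list Mt1, Ermap and Blvrb were among those that passed in all 6 fits. The list's count was 6, 6 and 4 without CMP 1, 6 and 8, and 17, 27 and 13 without LSK 1, 6 and 8.

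The regulators of the erythroid and megakaryocyte branch were split, with 4 of 31 higher, 4 lower and a median of −0.08 (−0.12 to −0.11 with other scalings). Klf1 rose (log2 fold change 5.32, SE 1.0, adjusted p = 0.032), as did Epor, the erythropoietin receptor (2.57, 0.14 and 0.315 CPM in LSK, 65.7, 79.4 and 86.5 in CMP, adjusted p = 0.0223), Gfi1b and E2f4, a cell cycle factor needed for erythroid maturation (116 ± 18 to 239 ± 21.9 CPM). Of the 6 fits that left out 1 library Klf1 passed in 1, that without LSK 6 (log2 fold change 4.78, adjusted p = 0.000152). Gata1, the master factor of the branch, went the same way in each library without passing (8.82, 0.21 and 1.7 CPM in LSK, 93.9, 115 and 105 in CMP, adjusted p = 0.0508). Gata2, its predecessor in stem and early progenitor cells, fell from 212, 310 and 197 CPM to 51.9, 51.7 and 77.6 (log2 fold change −1.94, SE 0.28, adjusted p = 0.0164). Lmo2, Nfe2 (263 ± 19.3 to 121 ± 21.6 CPM) and the corepressor Cbfa2t3 (299 ± 24.5 to 137 ± 30.9) fell too, while Tal1 (29.9 ± 6.47 and 46.3 ± 5.96 CPM, adjusted p = 0.295), Zfpm1 and Runx1 did not pass. The group's count of 8 was 2, 1 and 1 without CMP 1, 6 and 8, and 4 and 4 without LSK 1 and 8.

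Of 30 megakaryocyte and platelet genes tested, 0 were higher by edgeR (1 by DESeq2 and 1 at an unadjusted p under 0.05) and 3 were lower (Ctla2a and Cd63 among them), with 12 positive and 18 negative and a median of −0.33. Ctla2a, a cathepsin inhibitor whose reads may be shared with a close paralog, went from 541, 608 and 627 CPM to 44, 29.3 and 36.2 (log2 fold change −3.97, SE 0.21, adjusted p = 0.000476) and passed in all 6 fits. The platelet integrin Itga2b was at 31.8 ± 1.72 and 25.8 ± 12.5 CPM (adjusted p = 0.81). Pf4, platelet factor 4, was at 9.26 ± 5.6 CPM in LSK and 39.7 ± 4.82 in CMP (adjusted p = 0.107), and Vwf, the von Willebrand factor, at 6.11 ± 5.24 and 13 ± 5.31 (adjusted p = 0.676). The difference between the erythroid and megakaryocyte lists was not tested.

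**Figure D3:**
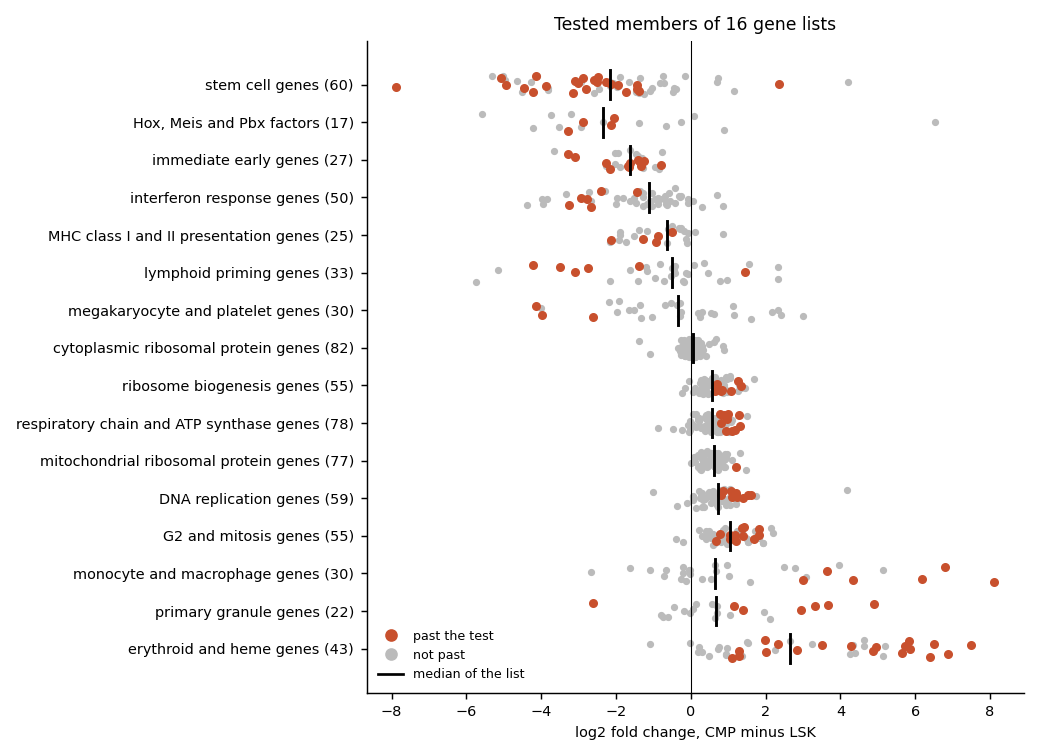
Log2 fold changes, CMP minus LSK, of the tested members of 16 lists (number tested in brackets); orange points passed the test, grey points did not, and the bar is the list's median. The medians run from −2.36 for the Hox, Meis and Pbx factors to 2.65 for the erythroid and heme genes, and cytoplasmic ribosomal protein genes sit at 0.05.

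Of 22 tested members of the primary granule list 6 rose and 1 fell (15 positive, median 0.68). The list also holds genes that encode no granule protein, Clec12a and Atp8b4 among these rises. Mpo rose by a log2 fold change of 3.67 (SE 0.16, adjusted p = 0.000204) and passed in all 6 fits. Ctsg, the granule protease cathepsin G, went from 10.4, 1.61 and 6.43 CPM to 238, 153 and 139 (log2 fold change 4.89, SE 0.65, adjusted p = 0.0128), and Clec12a, an inhibitory C-type lectin receptor, from 33.3, 26.6 and 15.6 to 222, 167 and 170 (log2 fold change 2.94, SE 0.32, adjusted p = 0.00692, all 6 fits). Prtn3, proteinase 3, was already at 183 ± 10.2 CPM in LSK and reached 395 ± 114 in CMP (adjusted p = 0.0307). Plac8 went from 369 ± 29.7 to 936 ± 271 CPM and Atp8b4, a lipid flippase, from 21.4 ± 17.1 to 204 ± 19. Elane, neutrophil elastase, overlapped between the cell types (86, 17.2 and 11.7 CPM in LSK, 240, 110 and 75.5 in CMP, adjusted p = 0.22). Cd63, a membrane protein of granules and lysosomes, fell from 213, 251 and 169 CPM to 50.3, 22.5 and 26.2 (log2 fold change −2.62, SE 0.36, adjusted p = 0.0135).

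CMP 1 was the highest CMP library for Mpo, Ctsg, Clec12a, Prtn3, Plac8 and Elane, and it is also the one richest in late neutrophil transcripts. The part of those transcripts in these values was not tested. With all 6 libraries the log2 fold change was 3.67 for Mpo, 4.89 for Ctsg, 2.94 for Clec12a, 1.16 for Prtn3 and 1.39 for Plac8. Without both libraries of number 1 it was 3.75 for Mpo (SE 0.12), 5.21 for Ctsg (SE 0.80) and 3.03 for Clec12a (SE 0.41). It was then 0.85 for Prtn3 (SE 0.20) and 1.05 for Plac8 (SE 0.15), lower than with all 6. In that fit of 4 libraries Mpo passed (adjusted p = 0.0075), and the calls of Ctsg (0.149), Clec12a (0.104), Prtn3 (0.25) and Plac8 (0.115) were lost. The granule list's count of 7 was 5, 2 and 2 without CMP 1, 6 and 8, and 5, 9 and 4 without LSK 1, 6 and 8. In the late neutrophil list itself 0 of 22 tested genes were higher (0 by DESeq2 and 0 at an unadjusted p under 0.05) and 1 was lower (2 without CMP 1 and 0 without CMP 8). S100a8, a calcium-binding protein of mature neutrophils, was at 271, 34.3 and 20.7 CPM in LSK and 392, 30.7 and 8.54 in CMP (adjusted p = 0.889). The fall was that of Padi4, an arginine deiminase, from 80.9, 100 and 147 CPM to 8.1, 15.2 and 8.8 (log2 fold change −3.30, SE 0.40, adjusted p = 0.00976).

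Among 40 regulators of granulocyte and monocyte fate 2 rose and 7 fell (median −0.51). Irf8, which directs monocyte and dendritic cell commitment, went from 27.1, 54.8 and 65.6 CPM to 508, 595 and 388 (log2 fold change 3.39, SE 0.36, adjusted p = 0.00654). Csf1r, the receptor for the monocyte growth factor M-CSF, went from 10.3, 4.96 and 6.06 CPM to 98.3, 175 and 141 (log2 fold change 4.33, SE 0.40, adjusted p = 0.00383). Both passed in all 6 fits. Cebpa, whose enhancer the study deleted in its other mice, was at 6.51, 8.25 and 2.46 CPM in LSK and 17.3, 15 and 29.9 in CMP: the libraries did not overlap, but the difference did not pass (log2 fold change 1.91, SE 0.74, adjusted p = 0.201). Spi1, the factor PU.1, was at 99.7 ± 10.1 and 126 ± 27.2 CPM (adjusted p = 0.378). Gfi1, a transcriptional repressor needed for granulocyte development, was at 68.8, 102 and 14.3 CPM against 21.4, 17.1 and 11.6 (adjusted p = 0.18). The falls were Gata2, Etv6 (440 ± 39.8 to 211 ± 32.7 CPM), Irf2 (126 ± 6.55 to 50.8 ± 8.74), Sox4 (934 ± 241 to 388 ± 77.5), Irf1 (215 ± 94.5 to 65.3 ± 14.2), Runx2 (230 ± 108 to 72.9 ± 9) and Cebpb (233 ± 64.7 to 86.8 ± 25.6, just past the threshold). Of these 7 falls 0 passed without CMP 1, without CMP 6 or without CMP 8, so that the list's count of 9 was 2 each time, and it was 3 and 4 without LSK 1 and 8.

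Of 30 tested monocyte and macrophage genes 6 were higher and 0 lower (0 by DESeq2 and 0 at an unadjusted p under 0.05), 18 were positive, and the median was 0.66. Ms4a6c, a membrane protein of monocytes, went from 15.5, 8.66 and 9.08 CPM to 157, 121 and 118 (log2 fold change 3.63, SE 0.33, adjusted p = 0.00367) and passed in all 6 fits, as did Csf1r. F13a1, coagulation factor XIII A, went from 8.13, 0 and 12.3 CPM to 378, 524 and 520 (log2 fold change 6.17, SE 1.16, adjusted p = 0.0318). Ly86, the partner of an innate receptor, went from 0.764 ± 0.757 to 83 ± 11.5 CPM and Mpeg1, perforin-2 of macrophages, from 8.8 ± 5.69 to 68.2 ± 4.47. Ccr2, the chemokine receptor of classical monocytes, stood at 2.39, 13.8 and 0.442 CPM in LSK and 121, 67.3 and 60.7 in CMP without passing (adjusted p = 0.098). Lyz2, lysozyme of mature cells, had similar means but a wide spread in CMP (195 ± 69.3 and 186 ± 142 CPM). The list's count was 2 without CMP 1, 6 or 8, and 3 and 10 without LSK 1 and 6.

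Genes of other lineages were tested as well. Of 33 lymphoid priming genes 5 fell and 1 rose. Gimap6, a GTPase of lymphoid cells, went from 432, 349 and 340 CPM to 57.9, 55.3 and 47.7 (log2 fold change −2.75, SE 0.18, adjusted p = 0.00132) and Gimap1 from 229 ± 37.5 to 25.9 ± 9.54. Both passed in all 6 fits, but reads of this gene family may be shared. Ltb, lymphotoxin beta, went from 132 ± 31 to 6.72 ± 3.18 CPM and Cd27, a surface receptor of lymphoid-primed progenitors, from 218 ± 74.6 to 80.9 ± 2.74. Dntt, the template-free DNA polymerase of early lymphoid cells, did not pass (494 ± 114 and 412 ± 126 CPM, adjusted p = 0.729), nor did Flt3, the receptor of lymphoid-primed multipotent progenitors (736 ± 146 and 427 ± 148 CPM, adjusted p = 0.159). The count of 6 in this list was 3, 3 and 2 without CMP 1, 6 and 8. Of 13 T and NK cell genes Tcf7, a transcription factor that T cells are known for, rose from 0.202, 0.21 and 0.126 CPM to 14.2, 20.8 and 16.8 (adjusted p = 0.0176) and Lat fell from 76.9 ± 19.3 to 12.1 ± 0.466; this count was 0 without CMP 1, 6 or 8 and 1 without LSK 1 or 8. Of 10 tested mast cell, basophil and eosinophil genes, Il1rl1, the receptor for interleukin 33, rose from 0.311 ± 0.434 to 27.1 ± 2.39 CPM, while Cpa3, the mast cell carboxypeptidase, did not pass (8.05 ± 4.49 and 41.7 ± 20.1, adjusted p = 0.0733). Ifitm1, Gata2 and Kit, which this list shares with stem cells, fell, and its count of 4 was 2, 1 and 1 without CMP 1, 6 and 8, 2 without LSK 8 and 6 without LSK 6. Of 12 B cell and 9 stromal genes 0 passed edgeR's test (0 and 1 by DESeq2, and 0 and 1 at an unadjusted p under 0.05).

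Across 52 receptors for cytokines and growth factors 2 rose (Csf1r and Epor) and 4 fell (Kit, Tgfbr2 and Igf1r among them). Of all tested genes 2.15% were higher and 2.06% lower. Tgfbr2, a receptor of the growth inhibitor TGF-beta, went from 76.3 ± 12.6 to 24.2 ± 2.1 CPM (adjusted p = 0.025) and Igf1r, the receptor for insulin-like growth factor, from 92.1 ± 19.4 to 36.8 ± 5.28 (adjusted p = 0.0455). The G-CSF receptor Csf3r did not pass (156 ± 25 and 95.2 ± 25.4 CPM, adjusted p = 0.193), nor did the GM-CSF receptor chain Csf2ra (29.2 ± 4.77 and 31.9 ± 12.6, adjusted p = 0.853). The count of 6 was 2 without CMP 1, 6 or 8 and without LSK 8, 3 without LSK 1 and 10 without LSK 6.

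In the G2 and mitosis list 13 of 55 rose and 0 fell (0 by DESeq2 and 0 at an unadjusted p under 0.05), 53 were positive, and the median log2 fold change was 1.06. Ccna2, cyclin A2, went from 157, 103 and 131 CPM to 357, 333 and 298 (log2 fold change 1.39, SE 0.19, adjusted p = 0.0137), Mki67, the proliferation marker, from 385, 360 and 270 to 647, 743 and 692, and Plk1, the mitotic kinase, from 37.3 ± 10.5 to 125 ± 19.2. Cdk1 was at 91.4 ± 30.5 and 191 ± 12.3 CPM (adjusted p = 0.0679). Of 59 DNA replication genes 9 rose and 0 fell (0 by DESeq2 and 0 at an unadjusted p under 0.05), with 56 positive and a median of 0.74. Rrm2, the small subunit of ribonucleotide reductase, went from 165, 196 and 152 CPM to 436, 486 and 512 (log2 fold change 1.53, SE 0.16, adjusted p = 0.00654) and passed in all 6 fits. Fen1, the flap endonuclease, went from 146 ± 8.66 to 323 ± 20.4 CPM and Mcm7, a helicase subunit, from 293 ± 17.6 to 510 ± 40.2. Of 25 G1 cyclins, kinases and inhibitors 5 rose and 1, Btg2, fell (2 and 2 with RLE scaling), with 11 negative and a median of 0.24. Ccne1, cyclin E1 of the entry into S phase, was at 8.99, 0.0699 and 2.96 CPM in LSK and 130, 139 and 138 in CMP (log2 fold change 5.11, SE 1.11, adjusted p = 0.0493), and Ccne2 at 17.5 ± 2.89 and 51 ± 8.51, while Cdk6 did not pass (36.6 ± 21.5 and 85.3 ± 25.6 CPM, adjusted p = 0.232). The G2 and mitosis count was 0 without CMP 1, 6 or 8, and 4, 21 and 2 without LSK 1, 6 and 8; the replication count was 2, 1 and 1, and 2, 16 and 3, and the G1 count of 6 was 1, 0 and 0, and 0, 6 and 2.

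Of 55 ribosome biogenesis genes 7 rose and 0 fell (0 by DESeq2 and 0 at an unadjusted p under 0.05), 52 were positive and the median was 0.56. Srm, spermidine synthase, which is not itself a ribosome factor, went from 126, 112 and 128 CPM to 293, 295 and 307 (log2 fold change 1.34, SE 0.15, adjusted p = 0.00697). Ncl, nucleolin, went from 1159 ± 133 to 1977 ± 128 CPM, and Npm1, nucleophosmin, from 1900 ± 63.5 to 2986 ± 437. Of 78 respiratory chain and ATP synthase genes 10 rose and 0 fell (0 by DESeq2 and 0 at an unadjusted p under 0.05), and 71 were positive (median 0.57). Among the rises was Atp5b, an ATP synthase subunit, from 967 ± 74.1 to 1641 ± 30.1 CPM (0.82 on the log2 scale, SE 0.10, adjusted p = 0.011). All 77 mitochondrial ribosomal protein genes were positive (median 0.61), with Mrpl20 the 1 past the test (0 without CMP 1, 6 or 8 or LSK 1 or 8, and 5 without LSK 6). The 82 cytoplasmic ribosomal protein genes had a median of 0.05, with 44 positive and 0 past the test by edgeR (3 by DESeq2 and 5 at an unadjusted p under 0.05). The count of ribosome biogenesis genes was 2, 0 and 0 without CMP 1, 6 and 8, and 1 and 2 without LSK 1 and 8; that of respiratory genes was 1, 0 and 0, then 3 and 2.

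Immediate early genes respond rapidly to signals and handling. All 27 tested had negative log2 fold changes, 12 of them past the test (median −1.63). Nr4a1, an orphan nuclear receptor, went from 679, 349 and 538 CPM to 53.8, 48.4 and 51.4 (log2 fold change −3.29, SE 0.26, adjusted p = 0.00196). Egr1, a factor that also restrains stem cell division, went from 835, 812 and 583 CPM to 123, 75.4 and 51.9 (log2 fold change −3.10, SE 0.33, adjusted p = 0.00654). Junb went from 1227, 1314 and 1204 CPM to 370, 238 and 206 and Dusp2, a phosphatase of MAP kinases, from 811, 693 and 818 to 261, 208 and 227. These 4 passed in all 6 fits. Fos did not pass (3124, 1654 and 1579 CPM in LSK, 1182, 698 and 422 in CMP, adjusted p = 0.103). In sum the list was at 20925, 13055 and 11699 CPM in LSK 1, 6 and 8 and at 7017, 4501 and 3437 in CMP 1, 6 and 8, highest for number 1 in both. No time between kill and lysis is given by the labels, and its part was not tested. The count of 12 was 6, 5 and 4 without CMP 1, 6 and 8 and 5 without LSK 1.

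Of 50 interferon response genes 6 fell and 0 rose (0 by DESeq2 and 2 at an unadjusted p under 0.05), 46 were negative, and the median was −1.13. Ifitm3, which restricts virus entry, went from 338, 337 and 357 CPM to 126, 111 and 131 (log2 fold change −1.43, SE 0.15, adjusted p = 0.00654) and passed in all 6 fits. Ddx58, the RNA sensor RIG-I, went from 90.1, 168 and 150 CPM to 13.3, 16.7 and 21.8 (log2 fold change −2.93, SE 0.35, adjusted p = 0.00976), and Rtp4, Oasl2, Iigp1 and Oas3 were the other falls. Of 25 genes of MHC class I and II presentation 5 fell and 0 rose (0 by DESeq2 and 0 at an unadjusted p under 0.05), with 23 negative and a median of −0.64. These were H2-K1, a class I heavy chain, from 2588, 2656 and 2632 CPM to 1112, 944 and 1065 (log2 fold change −1.28, SE 0.10, adjusted p = 0.00196, all 6 fits), its light chain B2m from 2206 ± 66.4 to 1145 ± 225, and H2-D1, H2-T23 and the class II gene H2-Ob. Reads of the H2 genes may be shared between close copies. The interferon count was 2, 1 and 4 without CMP 1, 6 and 8 and 3 without LSK 1; the presentation count was 3, 1 and 1, and 2 and 1 without LSK 1 and 8.

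Among metabolic and stress genes some passed in each direction. Ldhb, the heart-type lactate dehydrogenase subunit, fell from 115, 152 and 91.9 CPM to 10.1, 16.2 and 14.4 (log2 fold change −3.09, SE 0.33, adjusted p = 0.00654), while Ldha, the muscle-type subunit, rose from 669 ± 61.4 to 1063 ± 93.4 CPM, as did Slc16a1, a lactate carrier (36 ± 17 to 160 ± 21.9), and G6pdx, the entry enzyme of the pentose phosphate path (43 ± 7.58 to 97.7 ± 13.8). These were 4 of the 5 of 32 glycolysis genes that passed (7 higher and 2 lower by DESeq2, and 8 and 3 at an unadjusted p under 0.05). Asns, asparagine synthetase, rose from 16.3, 35.2 and 22.4 CPM to 130, 179 and 155 (log2 fold change 2.70, SE 0.34, adjusted p = 0.0116). Trib3, a pseudokinase of the same amino acid stress response, fell from 13.7, 24.9 and 15 CPM to 0.571, 0.223 and 0.388 (log2 fold change −5.42, SE 0.99, adjusted p = 0.0282). Both belong to the unfolded protein and amino acid stress list, of which 3 of 32 rose and 2 fell. In that list 10 were higher and 4 lower by DESeq2, and 13 and 4 at an unadjusted p under 0.05. The glycolysis count of 5 was 1, 1 and 0 without CMP 1, 6 and 8 and 1 without LSK 1 or 8, and the stress count of 5 was 1, 1 and 0, then 1 and 2, and 11 without LSK 6.

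The step was then set against the same step in the enhancer-null mice (CMP minus LSK, 3 libraries of each, numbers 1, 2 and 7), by an interaction term fitted over all 12 libraries. The difference passed for 37 of 12687 genes (0.292%), with the wild-type step more positive for 9 and more negative for 28. Mpo rose from 365 ± 74.7 to 4466 ± 423 CPM in the wild type and was at 1788, 2295 and 1217 CPM in the enhancer-null LSK libraries and 2671, 2360 and 3198 in enhancer-null CMP (difference of the steps 2.96 on the log2 scale, SE 0.30, adjusted p = 0.000732). Ctla2a fell from 592 ± 45.4 to 36.5 ± 7.36 CPM in the wild type and stood at 346 ± 29.9 and 198 ± 40.1 in enhancer-null LSK and CMP (difference −3.24, SE 0.27, adjusted p = 0.000218). For Ifitm1 the enhancer-null levels were 568 ± 108 CPM in LSK and 549 ± 137 in CMP (difference −3.04, SE 0.28, adjusted p = 0.000429). For H2-K1 they were 1916 ± 50.1 and 1678 ± 148 CPM (difference −1.16, SE 0.13, adjusted p = 0.00204). In these 4 genes the 2 enhancer-null cell types lay closer together than the 2 wild-type ones. Tcf7 was at 187, 231 and 92.5 CPM in the enhancer-null LSK libraries and 161, 155 and 128 in enhancer-null CMP, far above both wild-type cell types, and its wild-type step was the more positive (difference 6.70, SE 0.55, adjusted p = 0.000218). Wild-type LSK was at 0.202, 0.21 and 0.126 CPM, near the floor of 3 counts (0.088 to 0.203 CPM), so the size of this difference is uncertain. The count of 37 was 17 and 107 without enhancer-null CMP 1 and 2, 18, 16 and 19 without enhancer-null LSK 1, 2 and 7, 20, 12 and 18 without wild-type CMP 1, 6 and 8, and 19 without wild-type LSK 8.

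**Figure D4:**
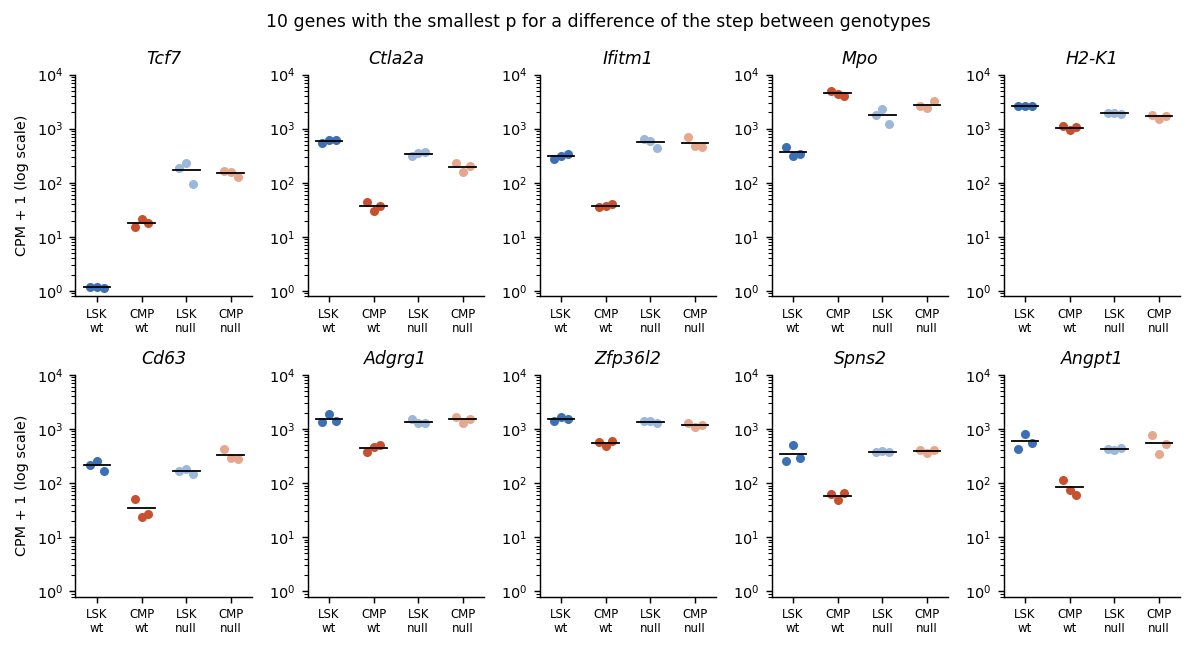
Levels, as CPM + 1 on a log axis, of the 10 genes with the smallest p for a difference of the step between genotypes, in wild-type LSK and CMP (dark points) and enhancer-null LSK and CMP (pale points), 3 libraries each; bars are means. For Ifitm1 the wild-type means are 307 and 36.5 CPM and the enhancer-null means 568 and 549 CPM.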

How the data were processed

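Per the labels' protocols, libraries were made from amplified total RNA of sorted cells, isolated with carrier, and read from both ends over 75 bp. The authors deposited 1 file of counts per library, raw whole numbers of reads per gene symbol. The submitters' processing notes name build mm10 and the tools Bowtie, TopHat, TopHat2 2.0.4 and HTSeq. The sources used here do not give the annotation, the counting mode or whether strand was used. Overlapping genes, antisense genes and close paralogs may therefore share reads. Rows that name no gene held 38.5% to 46.9% of the counts of the 6 wild-type libraries and were left out. The deposited counts were joined by symbol: CMP 6 lists 23456 symbols and the other 11 files 24420, of which 22779 were identical and 607 were linked one to one as older names through RefSeq (23386 genes; 0.0693% to 0.297% of gene counts were not joined). CMP 6 may thus have been counted with another annotation, and its level of any gene may differ for that reason. This was not tested. Positions are from GENCODE M21 on mm10.

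No 2 files were identical, and libraries of a group differed by a chi-square of 43 to 183 per degree of freedom, more than counting error. Each counted as 1 replicate, although this spread cannot show that libraries are independent. The labels do not say that replicates are separate animals, so p-values measure the spread between these libraries. Genes were tested in R 4.3.3 with edgeR 4.0.16 (TMM, filterByExpr at min.count 10, robust quasi-likelihood fit, Benjamini-Hochberg at 0.05) on the 6 wild-type libraries, with 4 residual degrees of freedom and a biological coefficient of variation of 0.719. The step was compared between genotypes by an interaction term over 12 libraries. DESeq2 1.42.0, other scalings, filters and gene sets, the replicate number as a block and fits without single libraries were alternatives. Levels are CPM scaled by TMM over 12 libraries, and intervals are exact 95% counting intervals, which cover counting error only, as the reads carry no molecular identifiers.

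The comparison and the gene lists were chosen with earlier results of these data known, and lists are described by counts and medians without a test of their own. Named genes followed a rule: the 4 markers; the 12 largest rises and falls past the test with at least 5 CPM in the higher group and no overlap of libraries; of each list up to 5 members past the test and up to 3 that did not pass, by p; members of the regulator, Hox, gate and other cell type lists; and the 10 smallest p of the interaction. Named outside it, after their values were seen, were further members of the lists given as examples. Some genes and lists that the rule took are not reported here.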

Additional observations from a re-analysis of the deposited data

Results flagged for a closer look

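For 10 genes the step from LSK to CMP differed between the wild-type and the enhancer-null mice by an interaction test over 12 libraries (edgeR's quasi-likelihood test, Benjamini-Hochberg adjustment), and these are the 10 smallest p of the 37 genes past it. The differences of the steps, wild type minus enhancer-null on the log2 scale, were 6.70 for Tcf7, −3.24 for Ctla2a, −3.04 for Ifitm1, 2.96 for Mpo and −1.16 for H2-K1, whose levels stand in the report. They were −3.70 for Cd63 (adjusted p = 0.00204), which fell in the wild type from 211 ± 40.8 to 33 ± 15.1 CPM and was at 166 ± 17.2 CPM in enhancer-null LSK and 334 ± 81 in enhancer-null CMP. For Adgrg1, an adhesion receptor of stem cells, the difference was −1.97 (adjusted p = 0.00341), with wild-type levels of 1540 ± 309 and 447 ± 70.5 CPM and enhancer-null levels of 1345 ± 141 and 1516 ± 190 CPM. The wild-type fall of Adgrg1, like that of Zfp36l2, passed in all 6 fits that left out 1 wild-type library. Zfp36l2, which destabilises RNAs, had a difference of −1.29 (adjusted p = 0.00439), with 1529 ± 122 and 550 ± 66.1 CPM in the wild type and 1366 ± 52.5 and 1187 ± 85.4 CPM in enhancer-null cells. Spns2, a sphingosine phosphate exporter, had −2.67 (adjusted p = 0.00439), with 349 ± 140 and 57.5 ± 8.89 CPM against 380 ± 2.73 and 393 ± 24.1 CPM. Angpt1 had −3.23 (adjusted p = 0.00866), with 588 ± 193 and 82.1 ± 27.4 CPM against 425 ± 18.5 and 546 ± 211 CPM. In each of these 5 genes the 3 wild-type CMP libraries were the lowest of all 12. The genes were picked by p from these same values, so this describes them and adds no support. Wild-type LSK and CMP libraries did not overlap for 33.3% of all tested genes. For Tcf7 the wild-type LSK level was near the floor of 3 counts, so the size of its difference is uncertain.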

How the results depend on the processing

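The 507 calls of the step (259 higher, 248 lower) were 731 higher and 887 lower with DESeq2, and 406 lower without a filter on low counts, where 19250 genes were tested. With RLE or upper quartile scaling, a stricter filter, identical symbols only or the contrast from all 12 libraries the counts stayed within 1.5 times (216 to 310 higher, 245 to 300 lower). Of the 507, 506 were also called by DESeq2 but only 127 with the number as a replicate block, and 0 changed sign in 14 alternative settings. Leaving out 1 library gave 15 to 505 higher and 40 to 377 lower genes. Leaving out both libraries of a number, chosen after seeing the data, gave 15 higher and 17 lower for number 1, 104 and 91 for number 6, and 0 and 0 for number 8, where 2032 genes had an unadjusted p under 0.05; these fits hold 4 libraries. With the number as a replicate block 52 were higher and 85 lower. The numbers were not shown to pair the libraries: deviations from the group means correlated at 0.0981, −0.0506 and 0.038 between CMP and LSK of number 1, 6 and 8, so that none reached 0.1. CMP 1 and 8 correlated best with their own number and CMP 6 with LSK 1 (0.0558), and the sexes matched number by number. The 37 calls of the interaction were 185 with DESeq2, 68 without a filter, 7 with the replicate block and 12 to 107 without 1 library. The cause of these shifts was not tested, apart from the genes and libraries each fit holds. Of the genes named, 127 passed and 0 called ones reversed in sign, while most crossed the threshold in at least 1 alternative. At 3 counts the depth limits levels below 0.088 to 0.203 CPM.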

Other observations

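Over all tested genes 2.15% rose and 2.06% fell. Of 44 polycomb, MLL and DNA methylation genes 3 rose and 1 fell (18 positive, median −0.23). The 3 rises were HMG-box proteins, which bend DNA and belong to none of the classes in the name: Hmgb1 went from 1439 ± 73.2 to 2085 ± 157 CPM, Hmgb2 from 728 ± 49 to 1124 ± 192, Hmgb3 from 143 ± 18.8 to 287 ± 30.5. Cbx7, a polycomb subunit known for stem cell self-renewal, fell from 41.4 ± 6.78 to 10.6 ± 1.09 CPM (adjusted p = 0.0457, edgeR). This count of 4 was 0 without CMP 1, 6 or 8 or LSK 1 or 8, and 8 without LSK 6. Of 25 p53 target genes 3 fell, Plk2 from 120, 90.8 and 192 CPM to 30.3, 27 and 17.7 (adjusted p = 0.0186), Sesn1 from 212 ± 49.5 to 98.4 ± 12.3 and Btg2, an inhibitor of proliferation, from 393, 287 and 221 to 142, 100 and 103; the count was 0 without CMP 1, 6 or 8 or LSK 1. In the unfolded protein and amino acid stress list, beside Asns and Trib3, Canx (calnexin), a chaperone of the endoplasmic reticulum, rose from 739 ± 72.5 to 1341 ± 137 CPM and Pdia4, a disulfide isomerase there, from 150 ± 23 to 323 ± 60.7, while Dnajb9, a stress-induced cochaperone, fell from 65 ± 6.07 to 23.5 ± 4.64.

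In the Myc network Myc did not pass (664 ± 154 CPM in LSK, 628 ± 96.2 in CMP, adjusted p = 0.959), while Mycn fell. Cd74, the invariant chain of class II presentation, was at 157, 142 and 122 CPM in LSK and 86.9, 14.4 and 7.7 in CMP 1, 6 and 8 (adjusted p = 0.246), with CMP 1, the library highest in B cell transcripts, above CMP 6 and 8; the part of those transcripts was not tested. Among gate genes Cd24a rose from 347 ± 72 to 654 ± 101 CPM (adjusted p = 0.0422) and Cd48, a protein absent from the most primitive stem cells, was at 113 ± 11.4 and 180 ± 36.2 (adjusted p = 0.116).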
